A study of Homo sapiens with 8 samples.

Results

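The 10 genes described here belong to the stress response run by the transcription factor ATF4: ATF4, ATF3, DDIT3, TRIB3, ASNS, CHAC1, NUPR1, SESN2, DDIT4 and CEBPB. They were taken by gene symbol from a table of 60234 genes, and each symbol stood on 1 identifier. All 10 had a mean of at least 1 CPM (a gene's reads scaled to a common library total) over the libraries and entered the test. The libraries came from Rh41 cells, a long-cultured line from a human alveolar rhabdomyosarcoma, which is a muscle-like cancer of soft tissue, and every library carried the PAX3-FOXO1 gene fusion of this line. One group of 4 libraries was labelled control and the other group of 4 was labelled siG9a, for knockdown of the histone H3 lysine 9 methyltransferase G9a, which is encoded by EHMT2. The series title writes shG9a where the sample labels write siG9a. The reagent of the control group, the time after knockdown and any stress treatment of the cells are not given in the sources used here.

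In the integrated stress response, kinases that sense uncharged tRNA, unfolded protein in the endoplasmic reticulum, double-stranded RNA or heme shortage phosphorylate the translation factor eIF2. Phosphorylated eIF2 lowers general protein synthesis while the ATF4 message, through its upstream open reading frames, is translated more, so ATF4 is controlled to a large part at the level of protein. ATF4 protein binds DNA with C/EBP family partners and turns on genes for amino acid supply, redox balance and feedback, and in prolonged stress genes linked to cell death. The measurements below are of RNA and hold no protein level.

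Reads were counted at transcript ends, so a CPM value does not depend on transcript length. The libraries held between 1458825 and 1938665 reads, and the 10 genes rested on between 1 and 1448 reads in a library. EHMT2 was lower in siG9a in 4 of 4 pairs of libraries with the same replicate number (control 57.6, 68.1, 87.3 and 88.3 CPM, siG9a 19.6, 35.1, 33.1 and 58.5 CPM, numbers 1 to 4), and the adjusted p from limma was 0.191, or 0.000472 once the replicate number was a block in the model. All 12 markers of alveolar rhabdomyosarcoma were present, but the libraries numbered 3 stood apart in both groups. Their summed rhabdomyosarcoma markers were 467 CPM in control (the other control libraries 2290 to 2507) and 446 CPM in siG9a (the others 1281 to 1780). Their summed neural markers, nearly all from the neurofilament genes NEFM and NEFL, with GFAP at 0, were 9604 CPM in control (the others 186 to 2041) and 8928 CPM in siG9a (the others 219.8 to 2951). Markers of fibroblasts summed to between 118 and 409 CPM in control and 51.95 and 323 CPM in siG9a. Those of epithelial cells summed to between 10.3 and 75.6 CPM in control and 24.1 and 43.96 CPM in siG9a. Those of leukocytes summed to between 1.83 and 4.91 CPM in control and 2.58 and 10.3 CPM in siG9a. Of 4 endothelial markers 3 were found, with sums between 1.22 and 2.08 CPM in control and 0 and 0.57 CPM in siG9a. Among these, CDH5 and KDR were at 0 in every library. The rhabdomyosarcoma markers were also lower in siG9a as a group. Of the 12, limma called 7 lower with the block, where 6.52% of all genes were called lower, and 0 without it. The part of these differences in the results below was not tested, and results are therefore also given without the libraries numbered 3.

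ATF4 and NUPR1 transcripts were lower in siG9a in 4 of 4 pairs, and the other genes had no common direction. Neither ATF4 nor NUPR1 was called without the replicate block, in which the libraries numbered 2 and 4 were paired by label alone. Whether the share of the 10 genes called with it differs from that of all genes was not tested. Of the 10 genes, 4 had a log2 change above 0 and 6 below 0, with a median of −0.27 where the median of all 15092 genes tested was 0.01. With the group as the only term, limma on log2(CPM + 1) with Benjamini-Hochberg adjustment over all genes called 0 of the 10 genes at an adjusted p under 0.05, where 0 of all genes (0%) were called. An unadjusted p under 0.05 was found for 3 of the 10 without the block, where 12.5% of all genes had one, and for 7 of the 10 with it, where 25.5% had one. With the replicate number as a block, limma called 2 of the 10, both lower, where 11.4% of all genes were called, 4.86% higher and 6.52% lower. In that design edgeR called 1 of the 10 where it called 11.3% of all genes, and DESeq2 called 1 of the 10 where it called 6.42%. DESeq2 gave no adjusted p there for NUPR1 and CHAC1, so neither could be called. The 4 siG9a values lay wholly above or wholly below the 4 control values for 2 of the 10 genes, where 7.32% of all genes did so (3.88% above, 3.45% below). The direction was the same in 4 of 4 pairs for 5 of the 10 genes, 3 of them higher and 2 lower, where this held for 30.2% of all genes (14.9% higher, 15.3% lower). Without the libraries numbered 3, limma called 0 of the 10 without the block, where 2.74% of all genes were called, and 1 of the 10 with it, where 7.14% were.

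**Figure D1:**
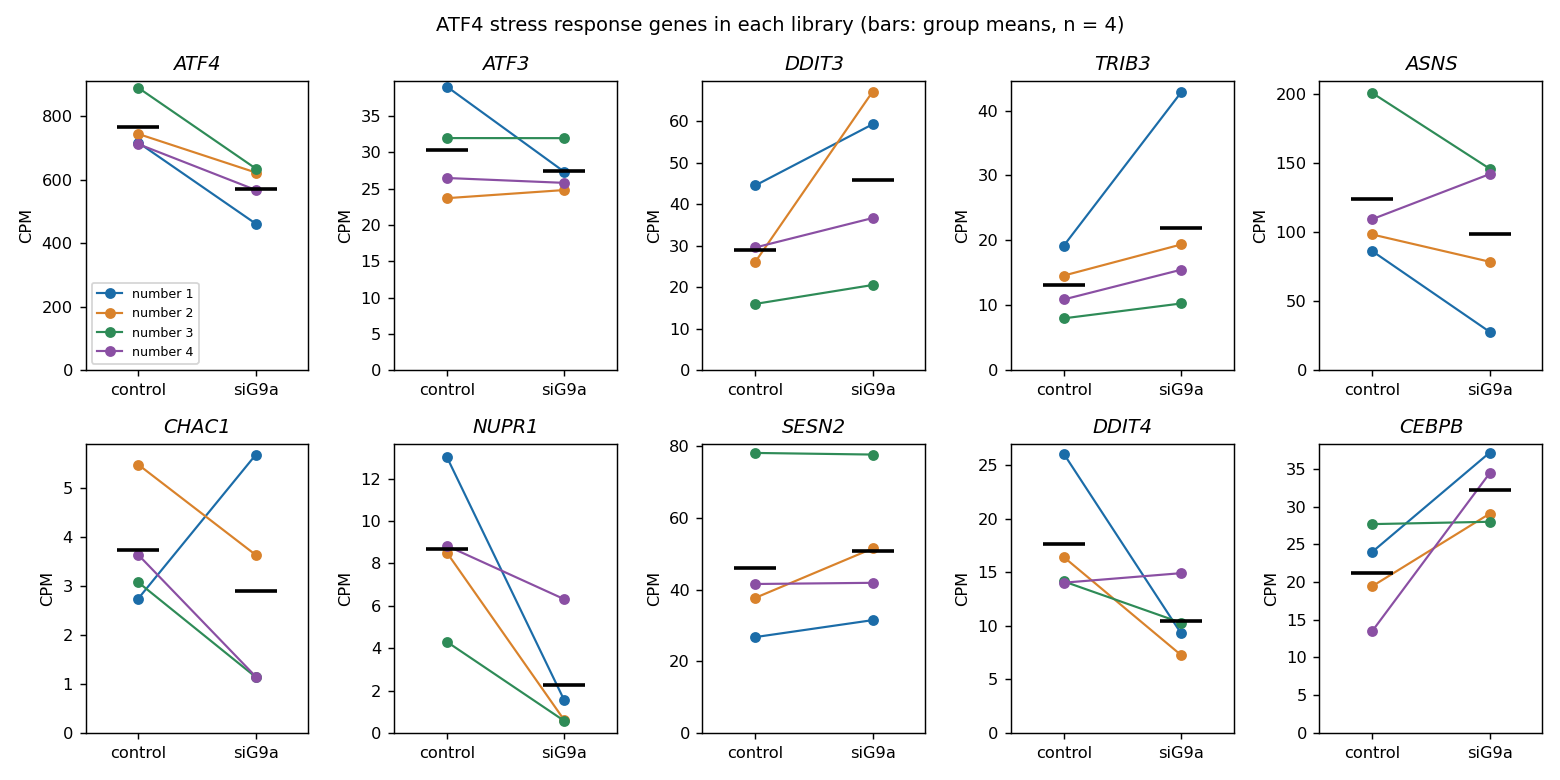
CPM of each of the 10 genes in the 8 libraries, 1 panel per gene with its own axis from 0; lines join the control and siG9a libraries of the same replicate number, and black bars are group means of 4 libraries. ATF4 lies between 713 and 890.4 CPM in control and between 462 and 636 CPM in siG9a, and DDIT3 and TRIB3 are highest in libraries numbered 1 or 2 and lowest in those numbered 3.

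ATF4, the bZIP transcription factor that gives the response its name, was the most abundant of the 10 genes and was lower after knockdown. It measured 718, 745, 890.4 and 713 CPM in control replicates 1 to 4, and 462, 623, 636 and 568 CPM in siG9a replicates 1 to 4. Every siG9a library was below every control library. Control averaged 766 ± 83.8 CPM and siG9a 572 ± 79.2 CPM (SD, n = 4 per group), so siG9a held 74.7% of the control level, on 896 to 1448 reads per library. On the log2 scale this was −0.43 ± 0.19 (SE; limma adjusted p 0.385), and in the blocked fit −0.43 ± 0.14 (SE; limma adjusted p 0.0416). The call was close to the threshold: with the block, the adjusted p was 0.0513 in edgeR, 0.0483 in DESeq2, 0.0506 with median-ratio scaling, 0.126 with quantile normalization and 0.173 in limma without the libraries numbered 3. Without replicate 1 of both groups it was 0.183, without replicate 2 it was 0.107 and without replicate 4 it was 0.0336. The ATF4 pseudogenes ATF4P1, ATF4P2 and ATF4P4 were at 0 in every library and ATF4P3 reached at most 1.15 CPM.

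The 5 genes whose profile over the 8 libraries was most like that of ATF4 were RPL35, KNOP1, HMGN1P38, MRPS16 and NOM1. Their root-mean-square difference from ATF4, in log2(CPM + 1) centred on each gene's mean, was 0.0902, 0.0927, 0.106, 0.111 and 0.111, where the median over the 8897 genes compared (a mean of at least 10 CPM) was 0.49. RPL35, a ribosomal protein gene, and HMGN1P38, a pseudogene, share sequence with other copies, and their values are uncertain in that respect. Among the 10 genes themselves, ATF4 and ATF3 were nearest to each other (0.29), and DDIT3 and TRIB3 were nearest to each other (0.36), while NUPR1 was the farthest from 6 of the other 9. This measure is small for genes that vary little. The SD over the 8 libraries was 0.28 for ATF4 and 0.23 for ATF3, against 0.70 for DDIT3 and TRIB3 and 1.24 for NUPR1. The 0.29 between ATF4 and ATF3 was no smaller than their own SDs, so it does not show a shared profile.

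ATF4 and its partners read a composite DNA element known as the C/EBP-ATF response element, and the core letters TGATGNAA were looked for on both strands of the RefSeq promoters (GRCh38.p14, 250 bases before to 50 after a transcript start). The table matched 9 of the 10 genes, all but NUPR1. The letters were present for ATF3, ASNS and CHAC1, 3 of 9, where 4.46% of all gene symbols held them. Counted by promoter, they were in 3 of 16 promoters of these genes (18.75%) and in 3.62% of all promoters of this length. The windows of 30 bases are shown because they hold the core letters of this element. The matching letters are in capitals, and each window is written along the strand on which they read. Elements farther from a transcript start were not looked for.
ATF3 (chr1:212565205-212565234, + strand, 191 bases before the start): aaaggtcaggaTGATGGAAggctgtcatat
ASNS (chr7:97872458-97872487, − strand, 68 bases before the start): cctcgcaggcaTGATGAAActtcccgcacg
CHAC1 (chr15:40953251-40953280, − strand, opposite to the gene, 202 bases before the start): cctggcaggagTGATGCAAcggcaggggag
The match is of letters only, in windows for which no binding was measured here.

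ATF3, a stress-induced bZIP factor downstream of ATF4, was close to level between the groups relative to its replicate spread. It measured 39.1, 23.7, 31.98 and 26.5 CPM in control and 27.3, 24.8, 31.97 and 25.8 CPM in siG9a, replicates 1 to 4. The groups overlapped, and the number 1 libraries alone differed by more than 1 CPM in the downward direction. The log2 change was −0.12 ± 0.25 (SE), limma adjusted p 0.897, and 0.788 with the block.

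DDIT3 encodes CHOP, the C/EBP family factor linked to cell death in prolonged stress, and TRIB3 encodes a pseudokinase that CHOP and ATF4 induce and that restrains ATF4 in return. DDIT3 measured 44.6, 26.1, 15.99 and 29.6 CPM in control and 59.3, 67.2, 20.6 and 36.7 CPM in siG9a, replicates 1 to 4. TRIB3 measured 19.2, 14.6, 7.99 and 10.9 CPM in control and 42.8, 19.4, 10.3 and 15.5 CPM in siG9a. Both were higher in siG9a in 4 of 4 pairs, and in both the groups overlapped. The library numbered 3 was the lowest of its group for both genes, and a library numbered 1 or 2 was the highest.

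The mean of DDIT3 went from 29.1 ± 11.8 to 45.9 ± 21.3 CPM (SD, n = 4 each), which is 0.59 ± 0.39 (SE) in log2 (limma adjusted p 0.576), or 0.59 ± 0.22 (SE; 0.0774) when blocked. The mean of TRIB3 went from 13.2 ± 4.84 to 21.98 ± 14.4 CPM (SD, n = 4 each), which is 0.58 ± 0.42 (SE) in log2 (limma adjusted p 0.626), or 0.58 ± 0.27 (SE; 0.175) when blocked. Single libraries weighed on both sizes: DDIT3 was at 0.35 without control replicate 3, 0.37 without siG9a replicate 2 and 0.92 without siG9a replicate 3, and TRIB3 was at 0.20 without siG9a replicate 1 and 0.38 without control replicate 3, all unblocked. Neither passed the test, and without the libraries numbered 3 the adjusted p with the block was 0.105 for DDIT3 and 0.202 for TRIB3. Reads of mitochondrial genes also took a higher share in siG9a in 4 of 4 pairs, with the highest in number 1 of each group, at 9.18%, 5.58%, 4.68% and 4.59% in control and 13.7%, 11.4%, 6.53% and 5.21% in siG9a for replicates 1 to 4, and its part in these values was not tested. The annotated 3′ end of DDIT3 lies inside MARS on the opposite strand (GENCODE release 29). MARS had a mean of 115.6 CPM and a log2 change of 0.28, and since the use of strand in counting is not stated, reads of the pair may not be fully told apart.

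CEBPB, a C/EBP factor that pairs with ATF4 on composite elements, was higher in all 4 siG9a libraries than in any control library. It measured 23.99, 19.4, 27.7 and 13.5 CPM in control and 37.1, 29.05, 27.98 and 34.4 CPM in siG9a, replicates 1 to 4. The gap was narrow, since control replicate 3 and siG9a replicate 3 held nearly the same level, on 45 and 49 reads. The means were 21.2 ± 6.11 and 32.1 ± 4.36 CPM (SD, n = 4 each), or 0.62 ± 0.28 (SE) in log2 (limma adjusted p 0.387). Blocked, it was 0.62 ± 0.24 (SE; adjusted p 0.093), and blocked without the libraries numbered 3 it was 0.82 (adjusted p 0.0748).

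**Figure D2:**
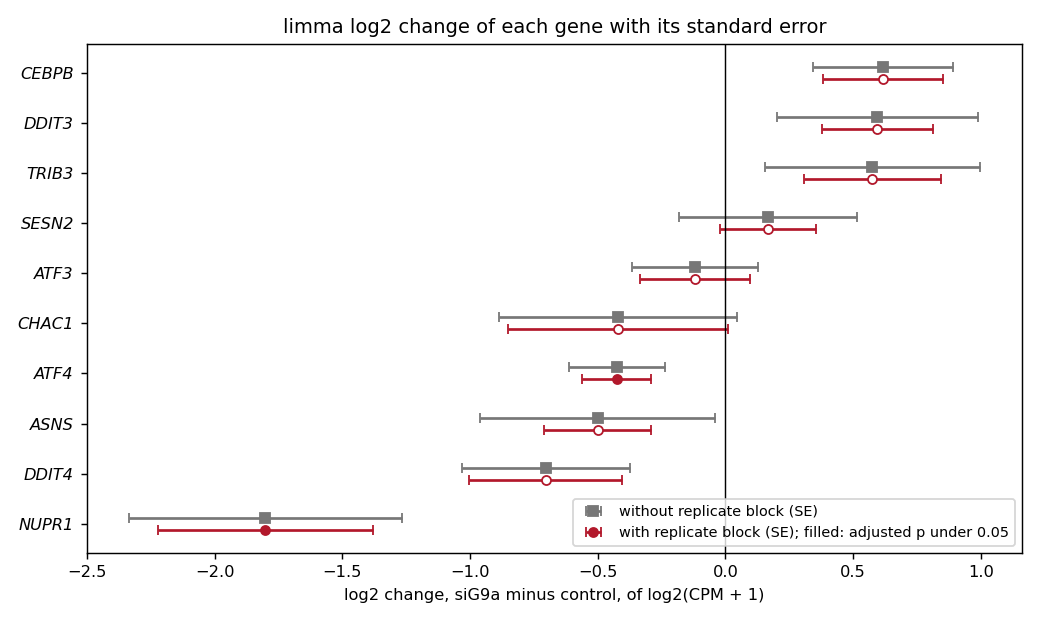
limma log2 change (siG9a minus control, on log2(CPM + 1)) of each of the 10 genes with its standard error, without the replicate block (grey squares) and with it (red circles, filled where the adjusted p is under 0.05). NUPR1 at −1.80 and ATF4 at −0.43 are the filled circles, and CEBPB, DDIT3 and TRIB3 lie between 0.58 and 0.62.

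ASNS, the asparagine synthetase gene that is a classical target of the amino acid arm, followed the replicate number more than the group. It measured 86.4, 98.4, 201 and 109.6 CPM in control and 27.9, 78.7, 146 and 142 CPM in siG9a, replicates 1 to 4. In both groups replicate 3 was the highest and replicate 1 the lowest, and ASNS was lower in siG9a in 3 of 4 pairs and higher in the pair numbered 4. The means were 123.9 ± 52.3 and 98.7 ± 56.5 CPM (SD, n = 4 each), or −0.50 ± 0.46 (SE) in log2 (limma adjusted p 0.711; 0.127 when blocked). Without replicate 4 of both groups, the fit with the block gave −0.79 with an adjusted p of 0.024. Without siG9a replicate 1, which was measured on 54 reads, the change was 0.01.

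SESN2, a sestrin that lowers mTORC1 activity when leucine is short, was, like ASNS, highest in replicate 3 and lowest in replicate 1 of both groups, and its groups overlapped. It measured 26.7, 37.7, 78.1 and 41.5 CPM in control and 31.5, 51.5, 77.7 and 41.9 CPM in siG9a, replicates 1 to 4. The log2 change was 0.17 ± 0.35 (SE), limma adjusted p 0.897, and 0.63 with the block. Its log2 change turned negative without control replicate 1 or without siG9a replicate 3, at −0.05 and −0.061.

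DDIT4 encodes REDD1, another inhibitor of mTORC1, and its siG9a mean was 59.1% of its control mean. It measured 26.05, 16.4, 14.1 and 14.02 CPM in control and 9.28, 7.26, 10.3 and 14.9 CPM in siG9a, replicates 1 to 4. It was lower in 3 of 4 pairs, with log2 differences of −1.40, −1.08 and −0.42 in pairs 1, 2 and 3, and nearly level in pair 4, at 0.08. In log2 it stood at −0.70 ± 0.33 (SE; limma adjusted p 0.405), and at −0.70 ± 0.30 (SE; 0.135) when blocked. Of SESN2 and DDIT4, both of which restrain mTORC1, neither passed the test. Their log2 changes had opposite signs, but that of SESN2 (0.17 ± 0.35, SE) turned negative without control replicate 1 or without siG9a replicate 3.

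NUPR1, a small nuclear protein induced by stress, had the largest change of the 10 genes. It measured 13.02, 8.51, 4.30 and 8.83 CPM in control and 1.55, 0.61, 0.57 and 6.31 CPM in siG9a, replicates 1 to 4. In reads these were 19, 14, 7 and 17 in control and 3, 1, 1 and 11 in siG9a. It was lower in 4 of 4 pairs, and the groups overlapped because siG9a replicate 4 was above control replicate 3. The means were 8.67 ± 3.56 and 2.26 ± 2.74 CPM (SD, n = 4 each), so siG9a held 26.1% of the control level, or 10.5% without siG9a replicate 4. In log2 this was −1.80 ± 0.53 (SE; limma adjusted p 0.211), and −1.80 ± 0.42 (SE; 0.00605) when blocked. Blocked edgeR gave 0.0125, and blocked DESeq2 gave no adjusted p. With the block and without the libraries numbered 3 the adjusted p was 0.0264. Without replicate 1 of both groups it was 0.0549 without replicate 2 it was 0.0716, and without replicate 4 it was 0.00535 with a log2 change of −2.26. The size depended on the pseudocount at these low counts, from −0.94 with a pseudocount of 5 to −2.45 with one of 0.1.

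CHAC1, an enzyme that degrades glutathione and a sensitive target of ATF4, had the lowest control level of the 10 genes. It measured 2.74, 5.47, 3.07 and 3.63 CPM in control and 5.67, 3.63, 1.14 and 1.15 CPM in siG9a, replicates 1 to 4, on 2 to 11 reads. It was higher in the pair numbered 1 and lower in the other 3 pairs. The log2 change was −0.42 ± 0.47 (SE), limma adjusted p 0.766, and 0.593 with the block. Without 1 library it ranged from −0.74 to −0.19.

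**Figure D3:**
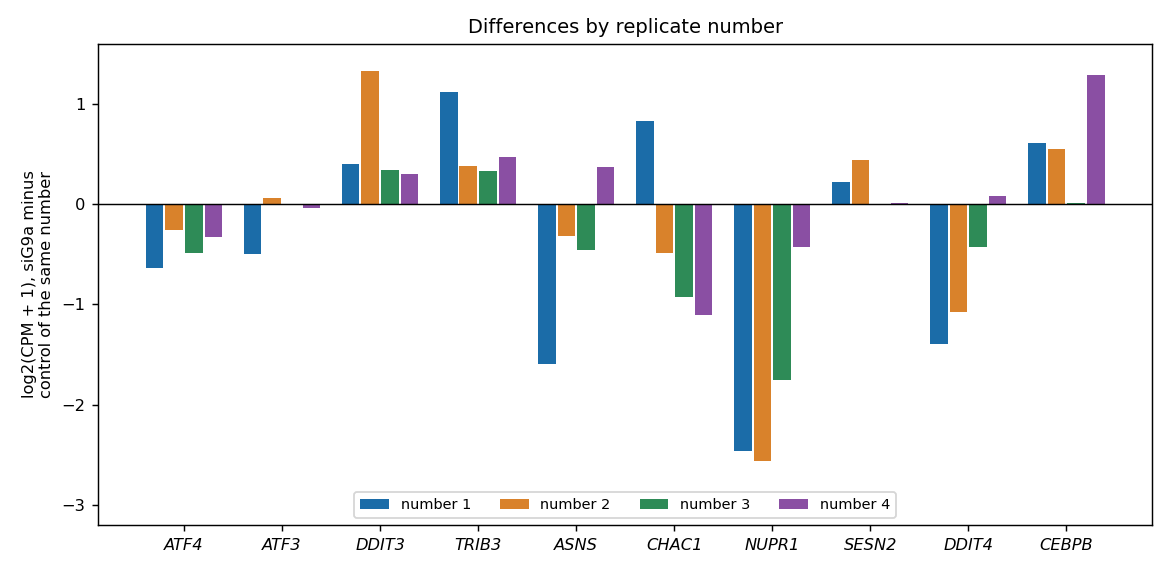
Difference of log2(CPM + 1), siG9a minus the control library of the same replicate number, for the 10 genes, 1 bar per replicate number with no error bar since each bar rests on 2 libraries. Bars of ATF4 and NUPR1 all point down and bars of DDIT3, TRIB3 and CEBPB all point up, although the CEBPB bar of number 3 is only 0.02.

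By level in control, the order was ATF4 (766 CPM), ASNS (123.9), SESN2 (46.01), ATF3 (30.3), DDIT3 (29.07), CEBPB (21.2), DDIT4 (17.7), TRIB3 (13.2), NUPR1 (8.67) and CHAC1 (3.73). The 4 control values of ATF4 did not overlap those of ASNS, and those of ASNS did not overlap those of SESN2. Every later pair of neighbours overlapped over the 4 control libraries. The median difference of the 10 genes was −0.14, −0.10, −0.22 and 0.05 on the log2 scale in pairs 1 to 4, and 5, 5, 3 and 6 of the 10 genes were higher in those pairs. No pair showed the 10 genes moving in 1 direction.

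The other genes of the pathway were taken from 7 lists with 137 genes tested. limma called 0 of these without the block, where 0 of all genes were called. An unadjusted p under 0.05 was found for 16 of the 137, where 12.5% of all genes had one. With the block it called 18, or 13.1%, against 11.4% of all genes, 9 higher and 9 lower. The lists were not tested as sets. Of the 18, 10 were also called with the block when the libraries numbered 3 were left out: EIF2AK3, JDP2, TRIB2, MAFG, SHMT2, MTHFD2, SESN3, BBC3, ATG12 and XBP1. That fit called 7.14% of all genes, whether or not they were called with the libraries numbered 3. EIF2AK3, MAFF, MAFG, YARS, VLDLR and ATG12 overlap another gene with at least 1 CPM in GENCODE release 29, and their values are uncertain in that respect.

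Upstream of ATF4, 1 of 21 genes was called with the block, where 11.4% of all genes were. The list held eIF2 kinases, eIF2, its exchange factor eIF2B, its phosphatases and the kinase regulators GCN1L1, IMPACT, OMA1 and KIAA0141. Its median log2 change was −0.01. EIF2AK3, which encodes PERK, the eIF2 kinase of the endoplasmic reticulum, rose from 7.26 ± 2.56 to 16.6 ± 3.47 CPM (SD, n = 4 each). All 4 siG9a values were above all 4 control values, and the limma adjusted p was 0.0236 when blocked and 0.221 otherwise. Blocked edgeR gave 0.0225 and blocked DESeq2 gave 0.087. The other 20, among them the kinases EIF2AK1, EIF2AK2 and EIF2AK4 with log2 changes of −0.01, −0.29 and 0.17, did not pass the test.

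Of 20 tested partners and cofactors of ATF4, 2 were called higher and 3 lower with the block, where 4.86% and 6.52% of all genes were. The median was 0.07. JDP2, a bZIP repressor, fell from 91.4 ± 39.9 to 41.4 ± 29.4 CPM, and TRIB2, a pseudokinase related to TRIB3, fell from 81.03 ± 44.3 to 30.6 ± 16.01 CPM (SD, n = 4 each), and blocked limma gave adjusted p-values of 0.000182 and 0.000221 (0.387 and 0.344 unblocked). JUN, an AP-1 subunit, fell from 818 ± 231 to 544 ± 196 CPM (SD, n = 4 each) with an adjusted p of 0.0223 with the block, a call that was lost without the libraries numbered 3 (0.0911). The small MAF proteins pair with NFE2L factors on stress elements, and 2 of their genes were higher in 4 of 4 pairs. MAFG rose from 50.3 ± 7.32 to 89.4 ± 34.8 CPM and MAFF from 2.47 ± 1.38 to 7.99 ± 4.83 CPM (SD, n = 4 each), and blocked limma gave 0.00874 and 0.0318. MAFF rested on 4, 7, 3 and 2 reads in control replicates 1 to 4. Without the libraries numbered 3 its blocked limma adjusted p was 0.0525, and DESeq2 gave no adjusted p for MAFF.

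Among 15 enzymes of amino acid and one-carbon metabolism, 1 was called higher and 1 lower with the block, where 4.86% and 6.52% of all genes were. Of the 15, 11 had a log2 change below 0 (median −0.21), where 7373 of all 15092 genes tested did (median 0.01). The 2 called genes encode the consecutive mitochondrial one-carbon enzymes and went in opposite directions. SHMT2 fell from 221.9 ± 49.4 to 126.3 ± 19.6 CPM and MTHFD2 rose from 53.4 ± 16.7 to 93.4 ± 29.7 CPM (SD, n = 4 each), and blocked limma gave adjusted p-values of 0.00249 and 0.0056 (0.171 and 0.296 unblocked). Of 11 amino acid transporters tested, limma with the block called 0, where 11.4% of all genes were called. An unadjusted p under 0.05 was found for 1 of the 11, where 25.5% of all genes had one. With the block, edgeR and DESeq2 also called 0, where they called 11.3% and 6.42% of all genes. The median log2 change was −0.14. Whether the transporters differ from these shares was not tested. The transporters of smallest p were SLC38A1 (45.8 CPM in control and 30.8 CPM in siG9a, adjusted p 0.0874 with the block) and SLC36A4 (12.03 and 6.96 CPM, 0.233). The list of cytosolic aminoacyl-tRNA synthetases, which load amino acids on tRNA, also held the tRNA export receptor XPOT. Of its 21 genes 14 were below 0, XPOT among them, where 7373 of all 15092 genes tested were. The median of −0.11 was the value of XPOT itself. In 4 of 4 pairs 6 of the 21 were lower and 2 higher, where 15.3% of all genes were lower and 14.9% higher. YARS, the tyrosyl enzyme, was the 1 of the 21 called with the block, where 11.4% of all genes were. It went from 175 ± 53.5 to 125.5 ± 37.8 CPM (SD, n = 4 each), at a blocked limma adjusted p of 0.032, which was 0.13 without the libraries numbered 3.

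Of 24 further stress targets, 2 were called higher and 4 lower with the block (median 0.08), where 4.86% and 6.52% of all genes were. SESN3, the sestrin related to SESN2, fell from 27.9 ± 7.45 to 8.895 ± 1.72 CPM (SD, n = 4 each), with all 4 siG9a values below all 4 control values and the limma adjusted p was 0.000606 blocked and 0.0997 unblocked. ATG12, an autophagy conjugation gene, fell from 94.1 ± 18.7 to 56.7 ± 6.75 CPM and the lipoprotein receptor gene VLDLR from 5.67 ± 2.19 to 1.27 ± 0.856 CPM (SD, n = 4 each), at blocked adjusted p-values of 0.00865 and 0.013. BBC3, which encodes the cell death protein PUMA, rose from 32.1 ± 22.99 to 54.7 ± 25.2 CPM and TXNIP, an inhibitor of thioredoxin, from 85.5 ± 29.9 to 137.3 ± 74.5 CPM (SD, n = 4 each), at blocked adjusted p-values of 0.0056 and 0.0144. None of these 5 was called without the block. The VLDLR mean in siG9a was below the level of 3 reads, which was 1.55 to 1.82 CPM in the siG9a libraries.

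Of 25 genes of the unfolded protein response of the endoplasmic reticulum, 3 were called with the block, all higher, where 4.86% of all genes were called higher. Their median log2 change was 0.25, and 21 of 25 were above 0, where 7719 of all 15092 genes tested were. In 4 of 4 pairs 9 were higher and 0 lower, where 14.9% of all genes were higher and 15.3% lower. XBP1, the factor spliced by IRE1, rose from 43.8 ± 2.69 to 77.7 ± 32.5 CPM, SEL1L, a subunit of the degradation complex, from 32.5 ± 7.10 to 50.9 ± 10.9 CPM, and MANF, a secreted stress protein, from 30.5 ± 4.98 to 48.5 ± 15.3 CPM (SD, n = 4 each). In each of the 3 all siG9a values were above all control values, and limma gave adjusted p-values of 0.0135, 0.0396 and 0.0491 blocked, and 0.29, 0.337 and 0.359 unblocked. DESeq2 with the block called XBP1 alone of the 3. The chaperone HSPA5 (BiP), the reference target of this arm, had a log2 change of −0.09 and did not pass the test. Without the libraries numbered 3, XBP1 alone of the 3 was called with the block (adjusted p 0.0237).

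**Figure D4:**
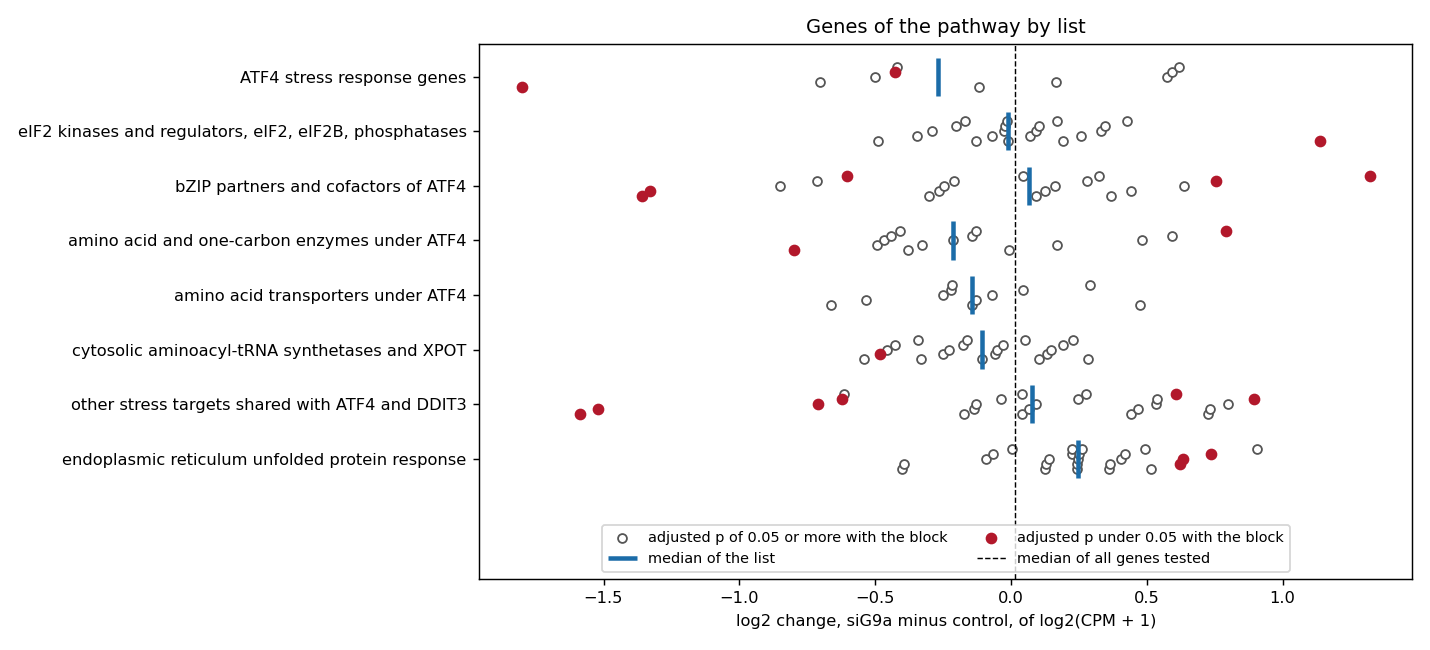
limma log2 change (siG9a minus control) of every tested gene in the 10-gene set and in the 7 lists of the pathway; red points have an adjusted p under 0.05 with the replicate block, blue bars are list medians and the dashed line is the median of all 15092 genes. The median of the unfolded protein response list is 0.25 and that of the 10 ATF4 stress response genes is −0.27, and called genes lie on both sides of 0 in 3 of the lists.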

How the data were processed

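RNA of 4 control and 4 siG9a Rh41 libraries was made into QuantSeq 3′ mRNA libraries and sequenced single-end, per the labels' protocols. The submitters' processing notes name FastQC 0.11.8, Trim Galore, STAR 2.5.0a, HTSeq 0.8.0, edgeR 3.28 and the builds GRCh38 and hg19, without roles; strand use and annotation are not given in the sources used here. The deposited table holds CPM values to 2 decimals, per the file headers and the column sums. In each library 100% of the non-zero values were whole multiples of 1 read (within 0.011 CPM), so whole reads were recovered.

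Because the unit is CPM, limma 3.58.1 (R 4.3.3) was run on log2(CPM + 1), two-sided, with eBayes trend, on the 15092 genes averaging 1 CPM or more. edgeR 4.0.16 and DESeq2 1.42.0 on recovered reads, other pseudocounts, filters and scalings, array weights and left-out libraries were alternatives. The fits of limma, edgeR and DESeq2, each with and without the block, were also run on simulated reads. Their means were shared by both groups within a replicate number, apart from the genes changed on purpose. The other alternatives were not run on simulated reads. The series text calls the replicates biological, and the labels do not explain their numbers. Deviations of same-numbered libraries from their group means correlated across genes at 0.50, 0.104, 0.67 and 0.13 for numbers 1 to 4. All were above 0.1, and the numbers were taken to pair the libraries. Control replicate 2 correlated more with siG9a replicate 4 (0.14), and control replicate 4 with siG9a replicate 2 was at 0.091. The correlations thus set apart the pairs numbered 1 and 3, but could not tell the labelled pairs 2 and 4 from crossed ones. Those pairs rest on the labels alone, and a block with them crossed was not tested.

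The genes named are the 10 genes, EHMT2, the genes of smallest p in each list (at most 3 called per direction with the block) and the 5 nearest to ATF4; HSPA5, EIF2AK1, EIF2AK2 and EIF2AK4 were added after their values were seen. The members and lists were chosen with earlier results of these data known.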

Additional observations from a re-analysis of the deposited data

Results flagged for a closer look

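NUPR1 in siG9a replicate 4, at 6.31 CPM, lay far from the other siG9a libraries, which held between 0.57 and 1.55 CPM. The gap to the nearest library was 0.8293 of the whole range, just past Dixon's 95% critical value for 4 libraries. This was 1 of 28 groups of 4 examined over the 10 genes, EHMT2 and 3 measures per library, where chance gives about 1.4. EHMT2 was also highest in that library among the siG9a libraries, at 58.5 CPM, and whether the 2 are related was not tested.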

How the results depend on the processing

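Without the block, limma called 0 genes. The count was 18 with no filter on low values, 436 with array weights, 291 in DESeq2, between 0 and 300 with 1 library left out (300 without control replicate 3, 2 without siG9a replicate 4) and 413 without replicate 3 of both groups; none of these called any of the 10 genes. With the replicate block it was 1717 in limma, 1709 in edgeR and 969 in DESeq2, 1693 with median-ratio scaling and 1688 with quantile normalization (both chosen after seeing the data), and 951, 668, 1078 and 1393 without replicate 1, 2, 3 or 4 of both groups. Of the 10 genes, the block gave 2 calls in limma, 1 each in edgeR (NUPR1), DESeq2 (ATF4; NUPR1 got no adjusted p there), median-ratio scaling and quantile normalization (NUPR1 in both), and 0, 0, 1 and 3 without replicate 1, 2, 3 or 4 of both groups. The cause of these shifts was not tested. The median log2 change of the 10 genes (−0.27) moved to −0.14 with a pseudocount of 5, −0.12 with a filter at 5 CPM, −0.15 with array weights, −0.063 with the block without replicate 1 of both groups, and between −0.30 and −0.054 with 1 library left out. Of 307 values of single genes under the alternatives, 302 kept their direction; ATF3 reversed without control replicate 1 (0.0090) and with the block without replicate 1 of both groups (0.0093), ASNS without siG9a replicate 1 (0.010), and SESN2 without control replicate 1 (−0.05) or siG9a replicate 3 (−0.061). With 1 library left out ATF3 ranged from −0.22 to 0.0090, ASNS from −0.77 to 0.010 and SESN2 from −0.061 to 0.45, and without a change of sign DDIT3 from 0.35 to 0.92, TRIB3 from 0.20 to 0.86 and NUPR1 from −2.29 to −1.55. CHAC1 and NUPR1 had the fewest reads, down to 2 and 1 in a library.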
